A study of Mus musculus with 6 samples.

Results

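A set of 10 genes that mark macrophages was followed through 6 RNA-seq libraries of mouse gastrocnemius muscle. They were taken by symbol from the deposited gene table, out of 24054 genes. Adgre1, Cd68, Csf1r, Itgam and Lyz2 served as 5 general markers, Mrc1 and Cd163 as 2 resident-type markers, and C1qa, C1qb and C1qc as the 3 chains of complement C1q. Of these, 9 were listed under the symbols given, and Adgre1 was listed under its older symbol Emr1.

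The libraries came from male C57BL/6 mice and compared a loss of the transcription factor IRF4 in muscle (MI4KO, 3 libraries) with an excess of it (MI4OE, 3 libraries). MI4KO mice carried Irf4 flox/flox with Myl1-cre, and MI4OE mice carried Rosa26-LSL-IRF4 with the same Cre. Myl1 codes for a myosin light chain of skeletal muscle, so the Cre is driven in muscle fibres and macrophages in the tissue should keep working Irf4 alleles and no active transgene. The labels gave a high fat diet for all libraries while the study described chow, so the diet is in doubt, and the age of these mice was not given in the labels. Gastrocnemius of flox or wild-type mice was not analysed here, so a difference cannot be assigned to the knockout or to the overexpressor.

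Macrophages of healthy skeletal muscle lie mostly between the fibres and around vessels, where they clear debris and support repair. Their survival depends on signalling through the receptor coded by Csf1r. The scavenger receptor genes Cd163 and Mrc1 are used to recognise resident macrophages with tissue-maintaining functions, while Adgre1, Cd68, Itgam and Lyz2 are found more widely in macrophages and, for Itgam and Lyz2, also in other myeloid cells. Tissue macrophages are a main source of C1q, which binds immune complexes and dying cells and starts the classical complement pathway. IRF4 itself is known in macrophages as a factor of alternative activation, but in these mice it was altered in the muscle fibres.

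Total counts ran from 18828605 to 29239585 per library, so that 3 counts, taken as the floor of detection, corresponded to 0.101 to 0.148 CPM (a gene's counts relative to the TMM-scaled size of its library). Irf4 had 0 to 6 counts in the MI4KO libraries and 2864 to 10557 in the MI4OE libraries. The 10 muscle genes of a tissue check summed to between 173112 and 317766 CPM. MI4OE replicate 1 stood apart, with 7574 CPM of slow-fibre genes against 45.3 to 743 CPM in the other libraries and with the lowest sum of the muscle genes. The labels do not say whether libraries came from separate mice, so p-values measure only the spread between these samples.

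The promoters of 7 of the 10 genes were found among the RefSeq promoters of GRCm38.p6, and those of the resident-type pair and of a neighbouring pair of C1q chains are shown because the results set the genes of each pair side by side. Each is given 5′ to 3′ on the strand of its gene, as the 250 bases before the start. Capitals mark GAGGAA, or TTCCTC on the other strand, which is the core bound by the myeloid factor PU.1.
Mrc1, chr2:14229164-14229413, plus strand: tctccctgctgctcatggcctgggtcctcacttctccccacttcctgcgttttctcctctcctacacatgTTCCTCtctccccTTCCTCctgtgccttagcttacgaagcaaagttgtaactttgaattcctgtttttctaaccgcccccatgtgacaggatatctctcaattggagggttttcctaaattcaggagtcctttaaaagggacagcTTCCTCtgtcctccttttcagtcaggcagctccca
Cd163, chr6:124304401-124304650, plus strand: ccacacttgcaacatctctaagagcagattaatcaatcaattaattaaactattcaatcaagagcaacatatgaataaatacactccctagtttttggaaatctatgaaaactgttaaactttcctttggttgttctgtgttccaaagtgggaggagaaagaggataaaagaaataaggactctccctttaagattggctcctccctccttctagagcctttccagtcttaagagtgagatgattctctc
C1qb, chr4:136886201-136886450, minus strand: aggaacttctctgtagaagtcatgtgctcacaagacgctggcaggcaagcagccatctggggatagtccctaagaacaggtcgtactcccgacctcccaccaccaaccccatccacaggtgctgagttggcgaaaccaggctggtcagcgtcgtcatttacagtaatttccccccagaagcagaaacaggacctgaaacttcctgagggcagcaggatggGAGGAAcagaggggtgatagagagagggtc
C1qc, chr4:136892915-136893164, minus strand: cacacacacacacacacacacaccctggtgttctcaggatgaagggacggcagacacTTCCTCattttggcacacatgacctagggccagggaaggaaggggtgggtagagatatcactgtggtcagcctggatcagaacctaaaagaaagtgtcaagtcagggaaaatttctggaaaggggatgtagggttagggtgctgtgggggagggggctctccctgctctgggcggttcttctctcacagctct

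The Mrc1 window held the PU.1 core 3 times, with matches beginning 180, 167 and 35 bases before the start, whereas the Cd163 window held none. C1qb held it once, 30 bases before the start, and C1qc once, 193 bases before it. Of the 7 promoters, 5 held the core on either strand, against 23.3% of 32851 promoters of the same length. The other pair with a match were Itgam and Cd68, and Lyz2 had none. The interferon-stimulated response element and the ETS-IRF composite element, at which IRF4 binds beside PU.1, were found in 0 of the 7 windows on either strand, against 2.98% and 2.30% of all promoters. They were searched as GAAA, any 2 bases and GAAA for the response element and as GGAA, any 2 bases and GAAA for the composite, which can overlap each other and the PU.1 core, and a match describes letters and not binding.

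Macrophage transcripts were scarce in this tissue. The 10 genes together took between 0.00346% and 0.00901% of the counts of a library. Per length, Lyz2, the lysozyme gene of macrophages and neutrophils, was highest with a mean of 26.8 TPM (transcript abundance corrected for length) over the 6 libraries. The C1q chains came next, with mean levels of 15.6 TPM for C1qc, 14.7 TPM for C1qa and 13.6 TPM for C1qb. Cd68, Csf1r, Cd163 and Mrc1 followed at 4.49, 2.64, 1.52 and 1.19 TPM, and Adgre1 and Itgam were lowest at 0.518 and 0.485 TPM. Neighbours among the 3 C1q chains did not differ in level beyond their spread, since their shares of the C1q TPM ranged from 25.6% to 42.5% and changed order between libraries.

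None of the 10 genes differed between MI4OE and MI4KO at an adjusted p under 0.05 by edgeR's quasi-likelihood test, where 0.0237% of all 12660 genes tested did. All 10 passed the filter on low counts. At an unadjusted p under 0.05 there was 1 gene, Adgre1, against a background of 7.58%, and DESeq2 and edgeR's exact test also called 0 members at an adjusted p under 0.05. The fitted log2 ratio of MI4OE to MI4KO was above 0 in 2 members and below 0 in 8, with a median of -0.22, while 50.02% of all tested genes lay below 0. This balance rested on single libraries. Without MI4KO replicate 3 the members were 7 higher and 3 lower with a median of 0.10, and without MI4OE replicate 2 they were 6 higher and 4 lower with a median of 0.10. Since these were pieces of whole muscle, fewer macrophages and less RNA per macrophage cannot be told apart.

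**Figure D1:**
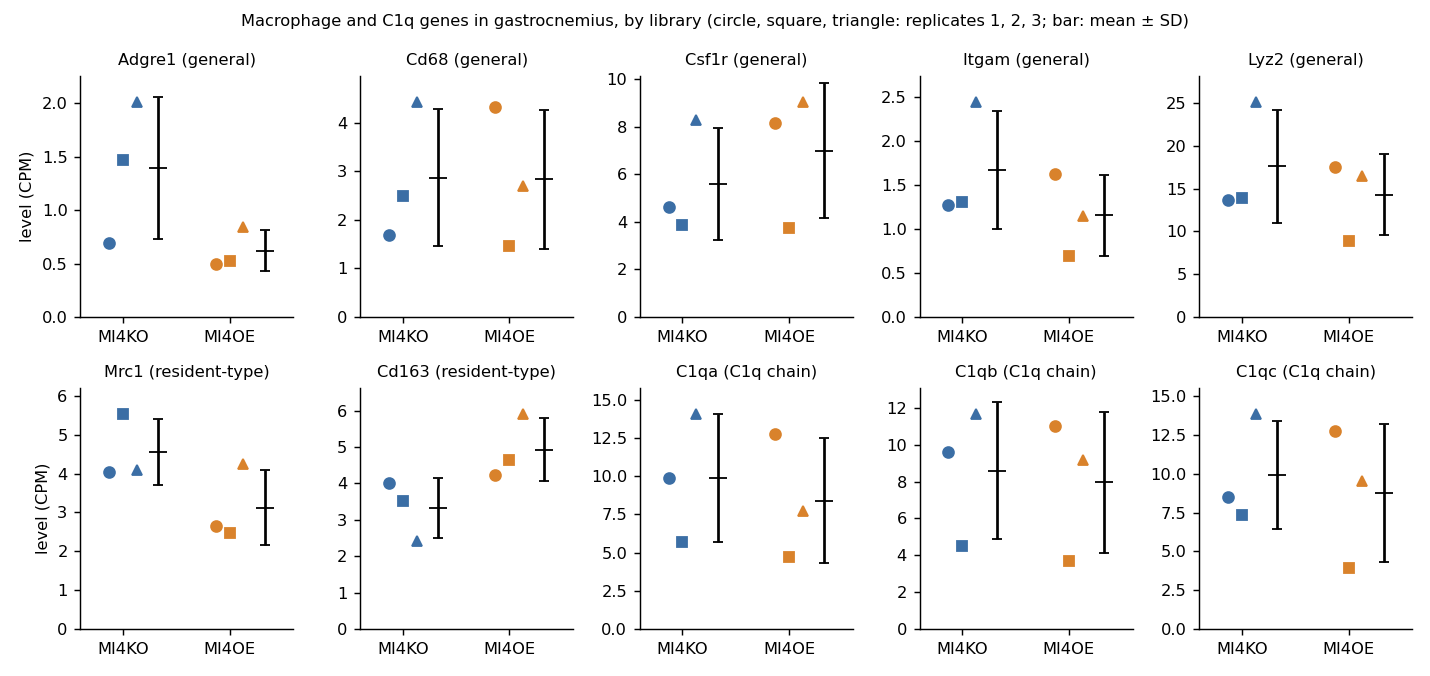
Level of each of the 10 genes in CPM on the vertical axis, from 0, for the 3 MI4KO (blue) and 3 MI4OE (orange) libraries, with circles, squares and triangles for replicates 1, 2 and 3 and black bars for the mean ± SD. MI4KO replicate 3 had the highest level in 7 genes and MI4OE replicate 2 the lowest in 8, and Cd163 is the panel in which the groups do not overlap.

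The plot of the 10 genes by library shows that libraries of the same genotype differed from each other, often in the same direction for several genes. MI4KO replicate 3 held the highest level of 7 members and MI4OE replicate 2 the lowest level of 8. Summed over the members, the level was 58.1, 49.7 and 88.5 CPM in MI4KO replicates 1, 2 and 3 and 75.6, 34.7 and 66.9 CPM in MI4OE replicates 1, 2 and 3. The group means of 65.4 ± 20.4 CPM (SD, n = 3) and 59.05 ± 21.5 CPM (SD, n = 3) were closer to each other than the libraries within either group. The highest library exceeded the lowest by between 2.23-fold for Mrc1 and 4.10-fold for Adgre1.

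Among the general markers, Adgre1, which codes for the F4/80 antigen, differed most. Its level was 0.696, 1.47 and 2.02 CPM in MI4KO and 0.492, 0.524 and 0.839 CPM in MI4OE, from 17, 37 and 60 counts and 10, 15 and 19 counts. The groups overlapped, because MI4KO replicate 1 lay below MI4OE replicate 3. The log2 ratio was -1.17 (standard error 0.48, 95% interval -2.28 to -0.06), the unadjusted p was 0.041 and the adjusted p was 0.626 by edgeR's quasi-likelihood test. Adgre1 was the member that met the study's criterion, a 1.5-fold difference at an unadjusted p under 0.05, which 6.64% of all tested genes met, 4.36% as higher and 2.28% as lower in MI4OE. It kept this criterion in 2 of the 6 fits that left out a library, and lost it without MI4KO replicates 2 or 3 or without MI4OE replicates 1 or 2, when the unadjusted p reached up to 0.16. It also lost the criterion with total counts in place of TMM factors and with limma on log2(TPM + 1) and log2(TPM + 0.1). Counting error was wide here, as 10 counts have an exact Poisson 95% interval of 4.80 to 18.4.

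Csf1r, the receptor for CSF1 and IL-34, was measured with more counts and leaned the other way. Its level was 4.63, 3.88 and 8.26 CPM in MI4KO against 8.17, 3.74 and 9.05 CPM in MI4OE, so that the highest and the lowest library were both MI4OE. The log2 ratio was 0.31 with an interval of -0.62 to 1.25 and an adjusted p of 0.896. The ratio of Adgre1 to Csf1r counts was 0.150, 0.378 and 0.244 in MI4KO and 0.0602, 0.140 and 0.0927 in MI4OE, which did not overlap. This ratio was chosen after the values were seen and was not tested.

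Cd68, a lysosomal glycoprotein gene of macrophages, had 1.68, 2.496 and 4.43 CPM in MI4KO and 4.33, 1.47 and 2.69 CPM in MI4OE. The group means were 2.87 and 2.83 CPM, and the interval of the log2 difference ran from -1.16 to 1.09, so differences within that range could not be distinguished from none. Itgam, which codes for the integrin chain CD11b, had 1.27, 1.31 and 2.45 CPM in MI4KO and 1.62, 0.699 and 1.15 CPM in MI4OE. Its log2 ratio of -0.55 had an interval of -1.57 to 0.46. For Itgam, 72.4% and 73.9% of the 50-base windows in its 2 transcripts also occur in the annotated gene Gm49368 (GENCODE M21), which has no row in the count table, so reads could not be divided between them. Itgb2, the partner chain of CD11b, had an overlapping range as well, with a log2 ratio of 0.12 and an interval of -1.38 to 1.63.

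Lyz2 was the best-counted general marker. Its level was 13.7, 13.9 and 25.2 CPM in MI4KO and 17.5, 8.84 and 16.5 CPM in MI4OE, with a log2 ratio of -0.30 (interval -1.09 to 0.48) and an adjusted p of 0.876. Lyz1, its neighbour and another lysozyme gene, had a log2 ratio of 0.78 and an adjusted p of 0.722. Lyz2 accordingly made up 89.7%, 91.6% and 94.5% of the Lyz1 and Lyz2 counts in MI4KO and 82.4%, 86.6% and 87.6% in MI4OE, without overlap. This share was not tested. Of the 50-base windows of Lyz2, 15.4% occur in Lyz1 too, and the division of such reads between the genes is an estimate.

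**Figure D2:**
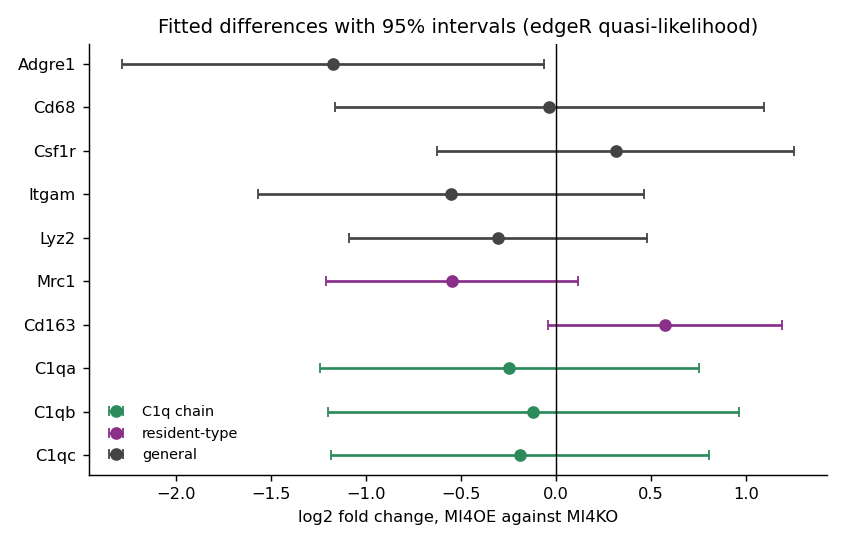
Fitted log2 fold change (the log2 ratio of MI4OE to MI4KO) of each gene on the horizontal axis, with bars for the 95% interval from edgeR's quasi-likelihood fit and colours for general markers, resident-type markers and C1q chains. The interval of Adgre1 (-2.28 to -0.06) is the single interval that leaves out 0, and those of Mrc1 (-1.21 to 0.11) and Cd163 (-0.04 to 1.19) lean to opposite sides.

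The resident-type markers did not move together. Mrc1, which codes for the mannose receptor CD206, had 4.05, 5.55 and 4.10 CPM in MI4KO and 2.66, 2.48 and 4.24 CPM in MI4OE. MI4OE replicate 3 lay above MI4KO replicates 1 and 3, so the groups overlapped, and the log2 ratio was -0.55 (standard error 0.28, adjusted p 0.725). Cd163, the receptor that takes up haemoglobin bound to haptoglobin, had 4.01, 3.53 and 2.42 CPM in MI4KO and 4.23, 4.65 and 5.92 CPM in MI4OE. On CPM every MI4OE library lay above every MI4KO library, and the log2 ratio was 0.57 (standard error 0.26, adjusted p 0.686). On TPM the groups of Cd163 overlapped, at 1.22, 1.49 and 0.86 in MI4KO and 1.41, 1.85 and 2.27 in MI4OE. An exact two-sided permutation test on log2 CPM gave p = 0.1, which is the smallest that 3 against 3 allows. Any gene whose groups do not overlap on CPM gets this value, so it only restates the separation.

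On CPM, Cd163 was 1 member of 10 whose groups did not overlap. Such a separation was shown by 12.9% of all tested genes, 7.38% as higher and 5.48% as lower in MI4OE. Scaled by total counts without TMM factors, Cd163 met the study's criterion in place of Adgre1, and it met the criterion without MI4KO replicate 1 as well. Mrc1 met it, as lower, without MI4OE replicate 3. The intervals that belong to the fit of all libraries are shown side by side in the plot of fitted differences, where that of Cd163 ran from -0.04 to 1.19 and that of Mrc1 from -1.21 to 0.11.

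Within each library, the counts of Cd163 over those of Mrc1 gave 0.990, 0.636 and 0.590 in MI4KO and 1.59, 1.87 and 1.40 in MI4OE. The ratio was thus below 1 in the 3 MI4KO libraries and above 1 in the 3 MI4OE libraries, with means of 0.739 ± 0.219 (SD, n = 3) and 1.62 ± 0.240 (SD, n = 3). It needs no scaling between libraries, but it was chosen after both genes had been seen and was therefore given no test. On TPM the ratio was 0.889 ± 0.268 against 1.94 ± 0.297 (SD, n = 3 each). The sum of the pair did not separate the groups, at 8.06, 9.07 and 6.52 CPM in MI4KO and 6.89, 7.13 and 10.2 CPM in MI4OE. Nor did the sum of the resident-type pair over that of the 5 general markers, which was 0.305 ± 0.131 in MI4KO and 0.339 ± 0.126 in MI4OE (SD, n = 3 each).

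**Figure D3:**
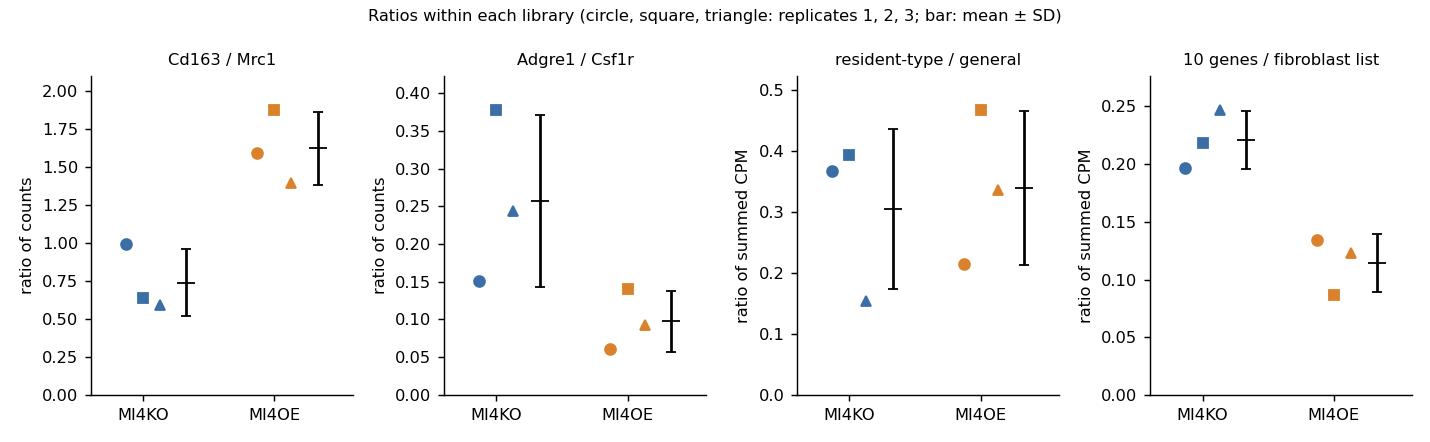
Ratios within each library on the vertical axes, from 0, for MI4KO (blue) and MI4OE (orange), with symbols for replicates and black bars for the mean ± SD of 3 libraries. The groups do not overlap for Cd163 over Mrc1 (0.590 to 0.990 against 1.40 to 1.87), for Adgre1 over Csf1r and for the 10 genes over the fibroblast list, and they do overlap for the resident-type over the general markers.

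The deposited transcript estimates split Cd163 between a pair of transcripts of nearly equal length. NM_053094 took 98.46, 89.37 and 18.88 expected counts in MI4KO and 0, 80.51 and 26.68 in MI4OE, and NM_001170395 took the rest. The division thus differed widely between libraries of the same group, as it did for the 2 transcripts of Itgam, so gene-level counts were used throughout.

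The C1q chains followed nearly the same order of libraries. C1qa had 9.91, 5.71 and 14.1 CPM in MI4KO and 12.8, 4.68 and 7.73 CPM in MI4OE. C1qb had 9.62, 4.48 and 11.7 CPM in MI4KO and 11.02, 3.67 and 9.19 CPM in MI4OE, and ordered the 6 libraries exactly as C1qa did. C1qc had 8.52, 7.37 and 13.9 CPM in MI4KO and 12.7, 3.95 and 9.54 CPM in MI4OE, and differed from that order in 1 exchange, of MI4KO replicate 1 with MI4OE replicate 3.

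For each chain MI4KO replicate 3 and MI4OE replicate 1 were highest and MI4OE replicate 2 was lowest. The log2 ratios were -0.25, -0.12 and -0.19 for C1qa, C1qb and C1qc, with standard errors of 0.43, 0.47 and 0.43 and adjusted p-values of 0.924, 0.974 and 0.943. All 3 were positive when either MI4KO replicate 3 or MI4OE replicate 2 was left out. The genes lie next to each other in the order C1qb, C1qc, C1qa in the RefSeq annotation of GRCm38.p6, and their transcripts share no 50-base window, so shared reads do not link their counts. Their sum over that of the general markers was 0.991 ± 0.263 in MI4KO and 0.939 ± 0.175 in MI4OE (SD, n = 3 each).

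Other genes of the complement system were read from a list of 24, of which 19 were tested, 11 being higher in MI4OE and 8 lower, at a median log2 ratio of 0.10. By the quasi-likelihood test none passed an adjusted p under 0.05, and 5 of the 19 had an unadjusted p under 0.05, against 7.58% of all tested genes. These were C1s and Cd93 as higher and C4b, Cfb and Cfd as lower. The proteases that join C1q in the C1 complex, C1ra and C1s, had log2 ratios of 0.30 and 0.55, and C1s was higher in every MI4OE library, at 20.02, 17.8 and 22.1 CPM against 10.4, 12.7 and 17.7 CPM. C3, the central component, had a log2 ratio of 0.25 with an interval of -0.60 to 1.11, and C3ar1, the receptor of its cleavage product on myeloid cells, had 0.10 with an interval of -1.81 to 2.002.

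Of the complement genes, 4 met the study's criterion, 1 as higher and 3 as lower, against 4.36% and 2.28% of all tested genes. C4b, the component cleaved by C1s, stood at 11.1, 18.9 and 51.7 CPM in MI4KO and 3.89, 8.32 and 4.24 CPM in MI4OE, with a log2 ratio of -2.30 and an adjusted p of 0.495. DESeq2 gave C4b an adjusted p of 0.00514 and edgeR's exact test one of 0.0204, within a range of 0.00514 to 0.912 over 15 alternatives. Cfb and Cfd, of the alternative pathway, had log2 ratios of -1.46 and -4.07, and without MI4KO replicate 3 those of C4b, Cfb and Cfd were -1.46, -0.52 and -2.29. Cfd also stood at -5.03 without MI4OE replicate 2. Cfd, which codes for adipsin, is also a member of the adipocyte list. Cd93, first described as a C1q receptor and abundant in endothelium, had a log2 ratio of 0.97. The complement median was -0.06 without MI4OE replicate 1.

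Further macrophage genes were read from a list of 20. Of these, 17 were tested, 6 being higher and 11 lower, with a median log2 ratio of -0.18. That median was 0.08 without MI4OE replicate 2 and 0.001 without MI4KO replicate 3. Mpeg1, which codes for the pore-forming protein perforin-2, met the study's criterion at 1.23, 3.09 and 4.10 CPM in MI4KO and 1.23, 0.629 and 1.37 CPM in MI4OE (adjusted p 0.577). Tyrobp, the adaptor DAP12, had a log2 ratio of -0.06 with an interval of -1.42 to 1.30.

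A longer list of resident-type genes was more mixed. Of 18 genes, 15 were tested, 9 being higher and 6 lower with a median log2 ratio of 0.28, and 5 met the study's criterion, 3 as higher and 2 as lower, against 4.36% and 2.28% of all tested genes. The median was 0.073 without MI4OE replicate 1 and 0.47 without MI4KO replicate 3. Retnla, which codes for a secreted protein of alternatively activated macrophages and is also made in adipose tissue, had 1.06, 0.119 and 0 CPM in MI4KO and 5.17, 3.74 and 6.67 CPM in MI4OE. Its log2 ratio was 3.75 with an interval of 1.51 to 5.99 and an adjusted p of 0.495, and leaving out MI4KO replicate 1 or 3 gave 6.42 or 3.11. The C-type lectin genes Cd209f and Mgl2 had log2 ratios of 2.77 and 1.48, and both were higher in every MI4OE library. Cd209f stood at 2.14 without MI4OE replicate 3 and Mgl2 at 2.07 without MI4KO replicate 1.

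Ccl8, a chemokine gene, lay on the other side. It had 1.15, 2.69 and 2.99 CPM in MI4KO and 0.0492, 0.315 and 0.221 CPM in MI4OE, without overlap, and a log2 ratio of -3.46 with an interval of -4.89 to -2.02. Its adjusted p was 0.422 by the quasi-likelihood test, and 0.000103 by DESeq2 and 0.000113 by edgeR's exact test, in a range of 0.000103 to 0.912 over 15 alternatives. Cbr2, a carbonyl reductase gene, had a log2 ratio of -0.82, and its groups overlapped.

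**Figure D4:**
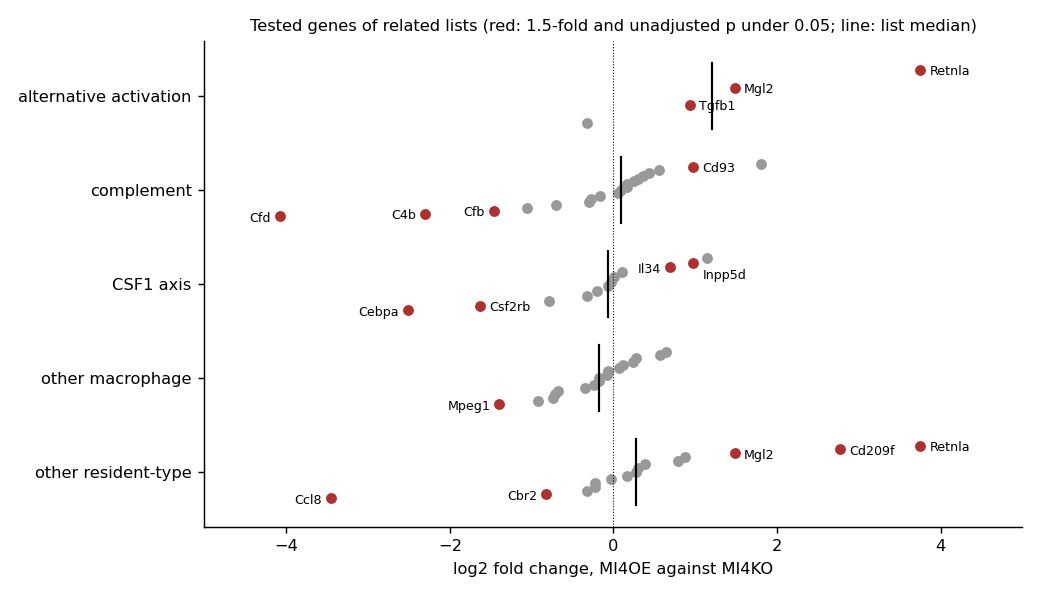
Log2 fold change, MI4OE against MI4KO, on the horizontal axis, with a point for each tested gene of 5 related lists apart from 1 gene not reported here, red and named where a 1.5-fold difference had an unadjusted p under 0.05, and a black line at each list's median. Medians lie between -0.18 and 0.28 except for the 4 tested genes of alternative activation (1.21), and called genes lie on either side of 0 in the resident-type, CSF1 and complement lists.

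The ligands of the CSF1 receptor were both detected. Csf1 had 3.44, 7.09 and 7.66 CPM in MI4KO and 6.49, 5.73 and 7.38 CPM in MI4OE, with a log2 ratio of 0.10. Il34 had 1.76, 2.77 and 2.42 CPM in MI4KO and 3.44, 3.85 and 3.93 CPM in MI4OE, without overlap. On TPM its groups overlapped, at 1.4, 3.05 and 2.32 in MI4KO and 3.03, 4.07 and 4.04 in MI4OE. Il34 met the study's criterion with a log2 ratio of 0.69 and an adjusted p of 0.578. It met that criterion in 2 of the 6 fits that left out a library.

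Of the 14 genes on the list of CSF1 signalling and myeloid factors, 13 were tested, 5 being higher and 8 lower, with a median of -0.06 that was 0.04 without MI4KO replicate 3. Spi1, which codes for PU.1, had a log2 ratio of -0.20 with an interval of -1.44 to 1.04. Csf2rb, the common beta chain of receptors for GM-CSF and related cytokines, had a log2 ratio of -1.63, and Cebpa, a factor of myeloid cells and adipocytes, had -2.51, which was -1.78 without MI4KO replicate 3. Inpp5d, the phosphatase SHIP1 of blood cells, had 0.98.

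Genes of macrophage activation were mostly too low to test. Of 10 inflammatory genes 3 were tested, and Cxcl10 met the study's criterion as lower in MI4OE, with a log2 ratio of -1.59. Of 10 genes of alternative activation 4 were tested, and 3 met it as higher, namely Retnla, Mgl2 and Tgfb1. Among all tested genes, 4.36% met it as higher and 2.28% as lower. Retnla and Mgl2 are on the resident-type list too, and Retnla had only 26, 3 and 0 counts in MI4KO. Tgfb1, which many cells make, had a log2 ratio of 0.93. The remaining tested gene, Clec10a, leaned lower, with a log2 ratio of -0.32 and overlapping groups. Il10, Csf2 and Ccl4 had 0 counts in all 6 libraries.

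On CPM, the summed levels of endothelial, fibroblast and adipocyte markers did not overlap between the genotypes, while the sums of the general markers, the resident-type pair and the C1q chains did. The 12 endothelial genes were all higher in MI4OE, at a median log2 ratio of 0.73, with a sum of 149 to 231 CPM in MI4KO against 262 to 469 CPM in MI4OE. That median was 0.38 without MI4OE replicate 1. The 10 fibroblast genes were all higher, with a median of 0.78 and a sum of 228 to 359 CPM against 402 to 564 CPM. The 8 tested adipocyte genes of 10 were all lower, with a median of -3.60 and a sum of 536 to 1200 CPM against 292 to 417 CPM. That median was -2.29 without MI4KO replicate 3 and -4.75 without MI4OE replicate 2. By the quasi-likelihood test none of these genes passed an adjusted p under 0.05, and 6 endothelial, 7 fibroblast and 6 adipocyte genes had an unadjusted p under 0.05, against 7.58% of all tested genes. Their part in the values of the macrophage genes was not tested. Plin4 and Fabp4, whose groups overlapped, had the highest mean levels on the adipocyte list. They stood at 257 and 246 CPM in MI4KO and 173 and 156 CPM in MI4OE, with log2 ratios of -0.57 and -0.66. On TPM the adipocyte sums overlapped, at 457 to 2178 in MI4KO and 402 to 789 in MI4OE.

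**Figure D5:**
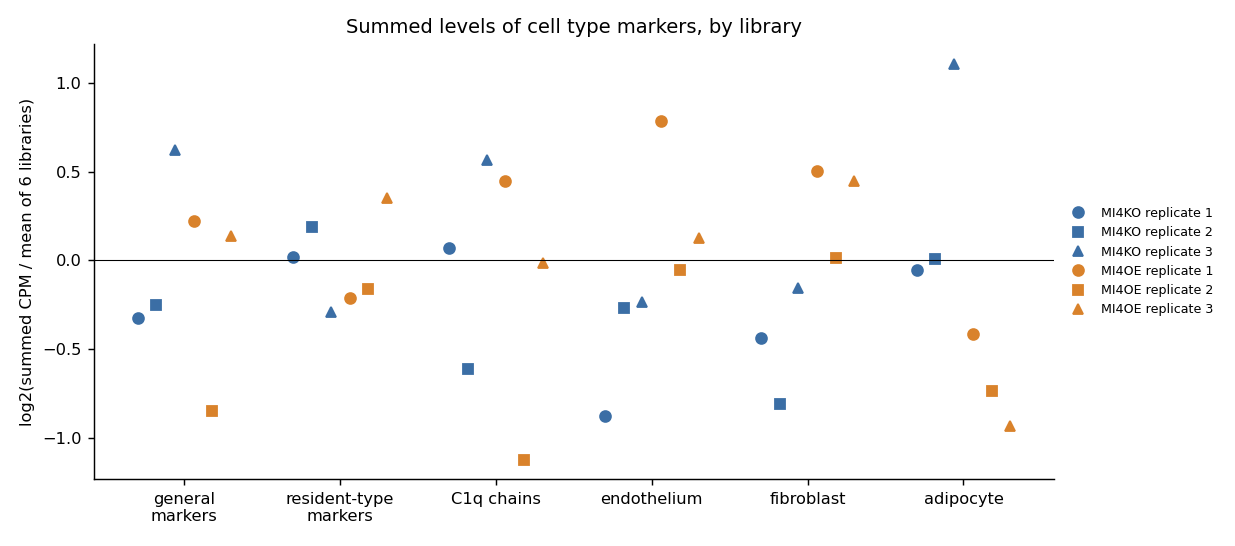
Summed CPM of 6 marker lists in each library, as log2 of the ratio to the mean of the 6 libraries on the vertical axis, with MI4KO in blue, MI4OE in orange and symbols for replicates. Groups overlap for the general, resident-type and C1q sums and are apart for the endothelial and fibroblast sums (higher in MI4OE) and the adipocyte sum (lower in MI4OE).

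Set against these cells, the sum of the 10 macrophage genes over the fibroblast sum was 0.197, 0.218 and 0.247 in MI4KO and 0.134, 0.0863 and 0.123 in MI4OE, without overlap. Over the endothelial sum it was 0.331 ± 0.0964 in MI4KO and 0.173 ± 0.0473 in MI4OE (SD, n = 3 each), with overlap. Over the adipocyte sum it was 0.0903 ± 0.0173 and 0.171 ± 0.0631 (SD, n = 3 each), again with overlap. The denominators differ between the groups in the ways given above, so these ratios, which were not tested, do not say which part moved. MI4KO replicate 3, highest in most macrophage genes, also had the highest adipocyte sum, at 1200 CPM.

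Outside the lists, the genes whose profile over the 6 libraries lay closest to the mean profile of the 10 members were Bcl2, 2310002L09Rik, Ifi35, Hcls1 and Tpd52l1. Their root mean square distances on the log2 scale were 0.11, 0.11, 0.13, 0.13 and 0.14, among 11182 genes with a mean of at least 1 CPM. Of the members themselves Lyz2 was closest to that mean, at 0.11, and Cd163 farthest, at 0.58. With 6 libraries and so many candidates such closeness is a description of these libraries.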

How the data were processed

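Stranded mRNA libraries were sequenced as single reads of 50 bases and processed by the authors, per the labels, with bcl2fastq 2.17, Bowtie2 2.1.0 and RSEM 1.2.15. The genome build is not given in the sources used here. Expected counts, as deposited, were estimated by RSEM for genes and transcripts without normalization, and deposited TPM values are abundances corrected for length by RSEM. The authors' comparison tables, with normalized values, fold changes and p-values, were not used. 0 library columns were left unmapped.

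Libraries were grouped by the genotype label. Expected counts were rounded and tested with edgeR 4.0.16 (quasi-likelihood test, TMM, filterByExpr with a minimum count of 10 and a minimum total of 15, Benjamini-Hochberg adjustment over 12660 genes) in R 4.3.3. CPM used TMM-scaled library sizes. The criterion of the study (1.5-fold, unadjusted p under 0.05) used the same fit. Alternatives were DESeq2 1.42.0, edgeR's exact test, limma 3.58.1 on log2(TPM + 1) and log2(TPM + 0.1), other filters and scalings, and fits without each library. Intervals are at 95%, and Poisson intervals, like the 3-count floor, hold counting error alone.

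The members and the 22 gene lists were chosen with earlier results of these data known. Named genes were the members, Irf4, a fixed set of partners (Lyz1, Itgb2, Csf1, Il34, Spi1, Tyrobp, C3, C4b, C1ra, C1s and C3ar1), up to 6 genes per macrophage-related list that met the study's criterion or an adjusted p under 0.05, and the 5 nearest profiles. A gene of the CSF1 list was counted but is not reported here. Genes at 0 were named after their values were seen. Window sharing was computed on GENCODE M21 transcripts, and promoter sequences were taken from RefSeq (GRCm38.p6).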

Additional observations from a re-analysis of the deposited data

How the results depend on the processing

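The count of genes at an adjusted p under 0.05 was 3, and it was 111 with DESeq2, 108 with edgeR's exact test and 1 to 4 with a library left out. In none of the 15 alternatives did it include a member. Irf4 had a log2 ratio of 12.61 (adjusted p 0.0587) without MI4KO replicate 1. The study's criterion was met by 841 genes, by 468 with limma on log2(TPM + 1) and by 590 to 1314 with a library left out. The median of the members was -0.22 and ran from -0.48 to 0.10 with a library left out, turning positive without MI4KO replicate 3 and without MI4OE replicate 2. Without TMM factors the median of all genes was 0.09.

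Small differences changed sign. Under total counts without TMM, limma on log2(TPM + 1) and limma on log2(TPM + 0.1), Cd68 stood at 0.046, 0.11 and 0.13, Tyrobp at 0.032, 0.064 and 0.079, Ifi35 at 0.095, 0.044 and 0.048, and Tpd52l1 at 0.088, 0.077 and 0.081. With a mean CPM of at least 1, Ifi35 stood at 0.0010 and Tpd52l1 at 0.0028. With a library left out, log2 ratios ran from -0.48 to 0.41 for Cd68, -0.48 to 0.031 for Lyz2, -0.68 to 0.082 for C1qa, -0.44 to 0.23 for C1qb, -0.57 to 0.16 for C1qc, -0.20 to 0.996 for Itgb2, -0.18 to 0.30 for Csf1, -0.55 to 0.70 for C3ar1, -0.67 to 0.16 for Spi1, -0.42 to 0.57 for Tyrobp, -0.19 to 0.39 for Hcls1, -0.22 to 0.20 for Ifi35 and -0.16 to 0.26 for Tpd52l1. The cause was not tested. Csf2rb and Cebpa passed an adjusted p under 0.05 with DESeq2 and the exact test, as C4b and Ccl8 did, and Cd209f passed with the exact test alone (0.0467). Of the named genes that met the study's criterion, Il34, Cbr2, Cd93 and Tgfb1 lost it without MI4KO replicate 1, Adgre1, Mpeg1, Mgl2, Inpp5d and Tgfb1 without MI4KO replicate 2, Adgre1, Il34, Mpeg1, Mgl2, Cbr2, Inpp5d, Cfb and Cxcl10 without MI4KO replicate 3, Adgre1, Mgl2, Cbr2, Inpp5d, Cfb, Cxcl10 and Tgfb1 without MI4OE replicate 1, Adgre1, Il34 and Mpeg1 without MI4OE replicate 2, and Il34, Mgl2, Inpp5d, Cfb and Cxcl10 without MI4OE replicate 3. With limma, Adgre1, Il34, Mpeg1, Cbr2 and Cfb lost it at both offsets and Inpp5d on log2(TPM + 1), and Adgre1 and Cfb lost it with total counts without TMM. The other genes named here that met it (C4b, Ccl8, Retnla, Cd209f, Csf2rb, Cebpa, Cfd and Irf4) met it in each alternative that tested them.

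No paired analysis was possible because numbers of replicates were given in accession order here and mark no shared animal, litter or batch. Depth limits the lowest members most, with 10 to 60 counts for Adgre1.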

Other observations

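Other immune cells left little RNA in these libraries. None of the 8 monocyte genes passed the filter on low counts, and their sum was 0.737 to 1.54 CPM in MI4KO and 0.524 to 0.972 CPM in MI4OE. None of the 10 genes of T and NK cells or the 8 of B and plasma cells passed either, with sums of at most 1.71 and 1.64 CPM, and Ncr1 of NK cells and Pax5 of B cells had 0 counts in all libraries. Of 10 neutrophil genes 2 were tested, with sums of 3.33 to 7.16 CPM and 3.46 to 5.85 CPM, and Camp was at 0.

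Mast cell and dendritic cell genes were low as well, and on CPM their sums did not overlap between the groups. On TPM the mast cell sums overlapped, at 3.33 to 5.64 in MI4KO and 5.38 to 12.61 in MI4OE. The mast cell sum was 2.496 to 3.96 CPM in MI4KO and 4.09 to 8.21 CPM in MI4OE, and the 4 tested genes of 6 were all higher with a median log2 ratio of 0.94, while Ms4a2 was at 0. The dendritic cell sum was at most 3.39 CPM in MI4KO and 3.74 to 5.12 CPM in MI4OE, with 2 of 8 genes tested. No gene of these lists met the study's criterion, and the sums were not tested.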
